A study of Mus musculus with 5 samples.

Results

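The insulin-like growth factor (IGF) genes measured here are 2 ligands (Igf1 and Igf2), 2 receptors (Igf1r and Igf2r) and 6 binding proteins (Igfbp2 to Igfbp7). They are those 10 of the 16593 genes named on a mouse Illumina BeadChip, taken by the gene symbol in the array's annotation, and all 14 of their probes are described. Of these, 6 genes had a probe above background and could be tested, beside 8927 tested genes in all. The cells were Dicer-null mouse embryonic fibroblasts (MEFs) of strain C57BL/6, so every array, control arrays included, comes from cells that lack Dicer, the nuclease behind microRNA maturation. They were transfected with siRNA by a cationic lipid reagent, and total RNA was taken after 48 h. The siTARBP2 group has 2 arrays, labelled siTARBP2-1 and siTARBP2-2. They are taken here as 1 array for each of the 2 siRNAs that the submitters' design text names, both against TARBP2, an RNA-binding protein that normally works beside Dicer. The siControl arrays number 3 (siControl-1, siControl-2 and siControl-3). The labels do not say whether the siControl arrays are different siRNAs, separate cultures or repeats, whether the siTARBP2 arrays come from separate cultures, or whether the cells are 1 clone, so p-values measure the spread between these arrays, which may be technical. The submitters' design text calls the cells metastatic and the controls mock-transfected; the sample labels, which say neither, were followed.

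IGF ligands are secreted hormones that act through the Igf1r tyrosine kinase, which drives growth and survival through insulin receptor substrates, PI3-kinase and AKT. Igf2r, the mannose 6-phosphate receptor, sends Igf2 and newly made lysosomal enzymes to lysosomes and is not a growth-signalling kinase. The binding proteins hold IGFs in the extracellular space, where they can shield the ligand from its receptor or carry it, and proteases that cleave them release it. In fibroblasts, Igfbp4 is known mainly as an inhibitor of IGF action, while Igfbp5 also binds the extracellular matrix. Igfbp7 is a related secreted protein with weak affinity for IGFs.

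The siRNA target Tarbp2 (probe ILMN_2939990) fell to 28.7% of the siControl level with siTARBP2-1 and to 20.4% with siTARBP2-2 (limma, adjusted p = 0.00118 and 0.00127). Its dimmer probe, ILMN_2649955, fell to 37.6% and 20.9%. The siTARBP2-1 array was above siTARBP2-2 by 0.85 in log2 signal in this dimmer probe and by 0.49 in ILMN_2939990. The Dicer1 probe was not above background on any of the 5 arrays (raw signals of 67.5 to 70.9); the sources do not say whether it lies in the deleted part, so it checks nothing. Of 13 fibroblast markers on the array 11 were above background on all 5 arrays, Col1a1, Pdgfra and Vim among them, against 0 of 5 endothelial, 0 of 3 leukocyte and 0 of 4 skeletal muscle markers. Of 5 epithelial markers, Krt18 and Krt19 were above background on all 5 arrays, Cdh1 was not, and Epcam had no probe named. The part of these cells in the results was not tested. Summed raw signals of the fibroblast markers ran from 16588.7 to 18464.9 over the 5 arrays, and those of the epithelial markers from 578 to 645.

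Of the 10 IGF genes 4 gave no signal that could be tested in these fibroblasts. Igf2, Igfbp2, Igfbp3 and Igfbp6 were not above background on any array. These genes have 5 probes, and with the second Igfbp7 probe, ILMN_2634286, 6 probes were left untested. Their raw signals ran from 53.7 to 75.9, where the lowest signal above background was 78.2 to 82.9 depending on the array, and their smallest detection p-value was 0.199. A signal below background bounds the level at these probes and does not show that the transcript is absent. The 5 raw signals of Igf2, the fetal growth factor gene, were 67.7 with siTARBP2-1 and 73.5 with siTARBP2-2, against 65.2, 75.9 and 68.2 in siControl. Igfbp3, the main IGF carrier of blood plasma, had 70.9 and 71.9 on the siTARBP2 arrays, against 71.6, 75.7 and 72.4 on the siControl arrays. Neither gene came above background on any siTARBP2 array. Pairs of binding protein genes lie side by side in the RefSeq gene order of GRCm38.p6, Igfbp2 beside Igfbp5 and Igfbp1 beside Igfbp3. In the first, Igfbp5 was above background on every array and Igfbp2 on none; in the second, both were below background on every array.

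**Figure D1:**
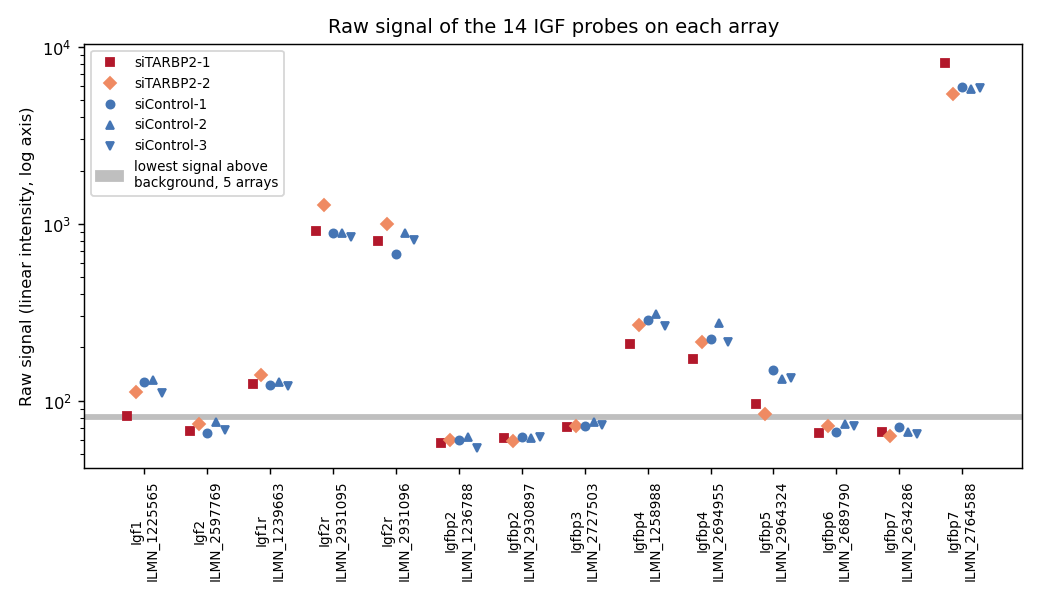
Raw signal of each of the 14 IGF probes (linear intensity on a log axis) on the 2 siTARBP2 arrays and 3 siControl arrays; the grey band spans the lowest signal above background over the 5 arrays, 78.2 to 82.9. The 6 untested probes lie below the band, Igf1 on siTARBP2-1 (81.3) lies within it, the other Igf1 signals and those of Igfbp5 lie close above it, and the Igfbp7 probe ILMN_2764588 lies far above it.

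Igfbp5 was far below the siControl arrays on both siTARBP2 arrays, at 52.7% of their level with siTARBP2-1 and 38.5% with siTARBP2-2. Each siRNA has 1 array, so a test of one siRNA takes its spread from the 3 siControl arrays alone. Limma's eBayes draws each probe's spread toward a value common to all kept probes, so an SE is not that probe's own control spread. The test also assumes that the siTARBP2 array varies like the siControl arrays. Under that assumption Igf1 and Igfbp5 fell and Igfbp7 rose with siTARBP2-1, and Igfbp5 fell and Igf2r rose with siTARBP2-2. In the comparison with more than 1 array on each side, both siTARBP2 arrays against siControl, 0 of 6 IGF genes passed, beside 0.0112% of all tested genes (limma; Igfbp5 adjusted p = 0.111). Igf1r and Igfbp4 did not pass the test with either siRNA. In the single-siRNA tests 3 of 6 IGF genes passed with siTARBP2-1, where 7.65% of all tested genes did, and 2 of 6 with siTARBP2-2, where 4.27% did (limma, Benjamini-Hochberg adjusted p under 0.05 over all tested probes). The 6 genes had a median log2 difference of -0.15 with siTARBP2-1 and -0.14 with siTARBP2-2, beside -0.01 and 0.02 over all tested genes. They moved in both directions, with 3 positive and 3 negative differences with siTARBP2-1 and 2 positive and 4 negative with siTARBP2-2. Over both siRNAs the median was -0.028, beside 0.0005 over all tested genes. Fewer cells that express a gene and less RNA per cell cannot be told apart in such bulk samples.

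The 4 genes that passed a single-siRNA test are shown by the 250 bases before their RefSeq transcription start. The sequences are those of GRCm38.p6, written 5′ to 3′ on the gene's strand. Capitals mark matches to any of 5 motifs searched on both strands. CACGTG is an E-box, read by many factors, regulators of lysosomal genes among them. The TATA-type elements searched were TATAAA and, as a variant, TATTTAA. The core of the interferon response element was searched as a pair of GAAA runs 2 bases apart. The forkhead factor core was searched as GTAAACA. The motifs were chosen after the sequences had been read.
Igf1, chr10:87860861-87861110, plus strand: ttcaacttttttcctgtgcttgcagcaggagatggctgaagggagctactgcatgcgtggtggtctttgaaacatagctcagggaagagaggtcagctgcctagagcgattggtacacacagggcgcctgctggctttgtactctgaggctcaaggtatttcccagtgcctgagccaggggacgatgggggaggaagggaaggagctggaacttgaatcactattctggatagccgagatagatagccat
Igfbp5, chr1:72874866-72875115, minus strand: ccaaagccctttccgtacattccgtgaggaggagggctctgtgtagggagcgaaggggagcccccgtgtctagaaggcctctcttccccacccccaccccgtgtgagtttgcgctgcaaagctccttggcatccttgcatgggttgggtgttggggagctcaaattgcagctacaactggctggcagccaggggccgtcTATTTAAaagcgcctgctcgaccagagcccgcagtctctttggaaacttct
Igfbp7, chr5:77408046-77408295, minus strand: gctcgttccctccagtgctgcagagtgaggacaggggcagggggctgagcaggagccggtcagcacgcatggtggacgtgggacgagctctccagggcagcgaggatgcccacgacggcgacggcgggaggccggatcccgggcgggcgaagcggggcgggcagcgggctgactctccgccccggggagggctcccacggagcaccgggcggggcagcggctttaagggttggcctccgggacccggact
Igf2r, chr17:12769707-12769956, minus strand: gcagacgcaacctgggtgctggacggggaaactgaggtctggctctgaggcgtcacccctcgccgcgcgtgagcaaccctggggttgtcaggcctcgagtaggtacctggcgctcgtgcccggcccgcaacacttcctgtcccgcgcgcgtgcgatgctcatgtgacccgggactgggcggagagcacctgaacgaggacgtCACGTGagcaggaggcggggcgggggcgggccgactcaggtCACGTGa
In these windows Igf2r held CACGTG at 2 places, 48 to 43 and 7 to 2 bases before the start, a motif found in 6.02% of the 32851 promoters of the same length. Of the 2 windows of Igfbp2, which was not above background, 1 held it too, 142 to 137 bases before its start, and the other did not. Igfbp5 held TATTTAA at 51 to 45 bases before the start, found in 4.18% of promoters. Igf1 and Igfbp7 held none of the 5. No window of any of the 10 genes held the GAAA pair or GTAAACA, which were found in 2.98% and 3.17% of promoters. TATAAA, in 12.4% of promoters, was present in the windows of Igfbp4 and Igfbp6 and of no other member. A match is a run of letters and not evidence of binding.

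Of the ligands, Igf1 could be tested, and it fell with siTARBP2-1. Igf1 encodes the growth factor that fibroblasts and other mesenchymal cells make for local use. Its probe had a raw signal of 81.3 with siTARBP2-1 and 111.7 with siTARBP2-2, against 126.6, 131.4 and 110.6 on the siControl arrays. The normalized log2 signal was 4.93 with siTARBP2-1 and 5.87 with siTARBP2-2, against 6.16, 6.23 and 5.92 in siControl. The siTARBP2-1 array is far below the others, while siTARBP2-2 lies just under the lowest siControl array. With siTARBP2-1 the difference was -1.17 (SE 0.15, 95% interval -1.52 to -0.82, n = 1 and 3; limma, adjusted p = 0.00699), which left 44.4% of the siControl level. Igf1 ranked 27 from the bottom of the 8927 tested genes. With siTARBP2-2 it was -0.24 (interval -0.58 to 0.11; limma, adjusted p = 0.386). The siTARBP2-1 signal was barely above background, with a detection p-value of 0.0451. The size of the fall depended on the background step, and the difference was -0.48 with no background correction and -0.58 in the series matrix values.

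The receptors had positive differences with both siRNAs, and 1 passed the test with 1 of them. Igf2r rose with siTARBP2-2. Its brighter probe, ILMN_2931095, had a log2 signal of 9.88 with siTARBP2-1 and 10.20 with siTARBP2-2, against 9.61, 9.66 and 9.67 in siControl, so both siTARBP2 arrays are above all siControl arrays. The difference was 0.55 with siTARBP2-2 (SE 0.11, 95% interval 0.29 to 0.81; limma, adjusted p = 0.0449), or 147% of the siControl level, and 0.23 with siTARBP2-1 (interval -0.02 to 0.49; adjusted p = 0.246). The second probe, ILMN_2931096, had 9.71 with siTARBP2-1 and 9.82 with siTARBP2-2, against 9.21, 9.65 and 9.62 in siControl. Here siControl-1 lies well under the other controls, and the difference with siTARBP2-2 was 0.32 (SE 0.19; limma, adjusted p = 0.353). The Igf2r call was thus made by 1 of 2 probes, and it ended with the mean of both probes (0.44; limma, adjusted p = 0.113). It also ended without siControl-2 (0.56, adjusted p = 0.142), without siControl-3 (0.56, adjusted p = 0.071) and with no filter on dim probes (0.55, adjusted p = 0.0601).

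Igf1r, the signalling receptor, was dim and did not pass the test with either siRNA. Its log2 signal was 6.27 with siTARBP2-1 and 6.45 with siTARBP2-2, against 6.06, 6.16 and 6.15 in siControl. Both siTARBP2 arrays are above the siControl arrays. The differences were 0.14 with siTARBP2-1 (95% interval -0.12 to 0.41; limma, adjusted p = 0.478) and 0.32 with siTARBP2-2 (interval 0.06 to 0.59; adjusted p = 0.158).

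Igfbp5 was the IGF gene that passed the test with each siRNA. Its raw signal was 95 with siTARBP2-1 and 84.1 with siTARBP2-2, against 149.1, 132.8 and 134.6 on the siControl arrays. In normalized log2 signal these were 5.47 with siTARBP2-1 and 5.02 with siTARBP2-2, against 6.51, 6.26 and 6.41 in siControl, so both siTARBP2 arrays are far below the lowest control. Igfbp5 fell by 0.93 with siTARBP2-1 (SE 0.13, 95% interval of the difference -1.24 to -0.61; limma, adjusted p = 0.0109), to 52.7% of the siControl level. With siTARBP2-2 it fell by 1.38 (SE 0.13, interval -1.69 to -1.06; limma, adjusted p = 0.00999), to 38.5%. It ranked 68 from the bottom of 8927 genes with siTARBP2-1 and 12 from the bottom with siTARBP2-2. These comparisons share the siControl arrays. The siTARBP2 arrays differed in Igfbp5 by 0.45 (siTARBP2-1 minus siTARBP2-2, interval 0.07 to 0.84), which did not pass the test (limma, adjusted p = 0.143). As for Igf1, the size depended on the background step: with no background correction the differences were -0.44 with siTARBP2-1 and -0.61 with siTARBP2-2, and in the series matrix values -0.51 and -0.72. The detection p-value of Igfbp5 on siTARBP2-2 was 0.0263, a value borrowed from the remaining arrays by signal rank, because the deposited detection column of that array did not follow its signals.

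Igfbp7 was bright on all arrays and rose with siTARBP2-1. Probe ILMN_2764588 had raw signals of 8086.7 with siTARBP2-1 and 5399.6 with siTARBP2-2, against 5927.5, 5801.9 and 5864.7 on the siControl arrays. The log2 signals were 13.09 with siTARBP2-1 and 12.32 with siTARBP2-2, against 12.46, 12.43 and 12.53 in siControl. The siTARBP2 arrays lie on opposite sides of the siControl arrays, which are close together (12.47 ± 0.0497, SD, n = 3). The difference was 0.62 with siTARBP2-1 (SE 0.11, 95% interval 0.35 to 0.88; limma, adjusted p = 0.0235), or 153% of the siControl level, and -0.16 with siTARBP2-2 (interval -0.42 to 0.11; adjusted p = 0.455). The siTARBP2-1 call ended with median scaling (0.49; limma, adjusted p = 0.0534) and without siControl-2 (0.59, adjusted p = 0.0887). The second Igfbp7 probe, annotated to the same RefSeq transcript, was below background on all 5 arrays (raw signals of 63 to 70.8) and gives no measure of the change.

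Igfbp4 was lower on both siTARBP2 arrays in its 2 probes without passing the test. Probe ILMN_1258988 had a log2 signal of 7.40 with siTARBP2-1 and 7.71 with siTARBP2-2, against 7.80, 7.94 and 7.78 in siControl. The other probe, ILMN_2694955, had 7.01 with siTARBP2-1 and 7.31 with siTARBP2-2, against 7.34, 7.73 and 7.39 in siControl. In both probes siTARBP2-1 is the lowest array and siTARBP2-2 lies just under the siControl arrays. The siTARBP2-1 differences were -0.44 (95% interval -0.73 to -0.16; limma, adjusted p = 0.0766) and -0.48 (interval -0.88 to -0.08; adjusted p = 0.142), and the siTARBP2-2 differences -0.13 (interval -0.41 to 0.16) and -0.18 (interval -0.57 to 0.22). The first probe passed the test with siTARBP2-1 under 4 other settings. These were no background correction (-0.33), normexp with an offset of 50 (-0.35), median scaling (-0.55) and the series matrix values (-0.35). Under these settings the second probe passed only with median scaling (-0.58). The mean of both probes did not pass (-0.46).

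**Figure D2:**
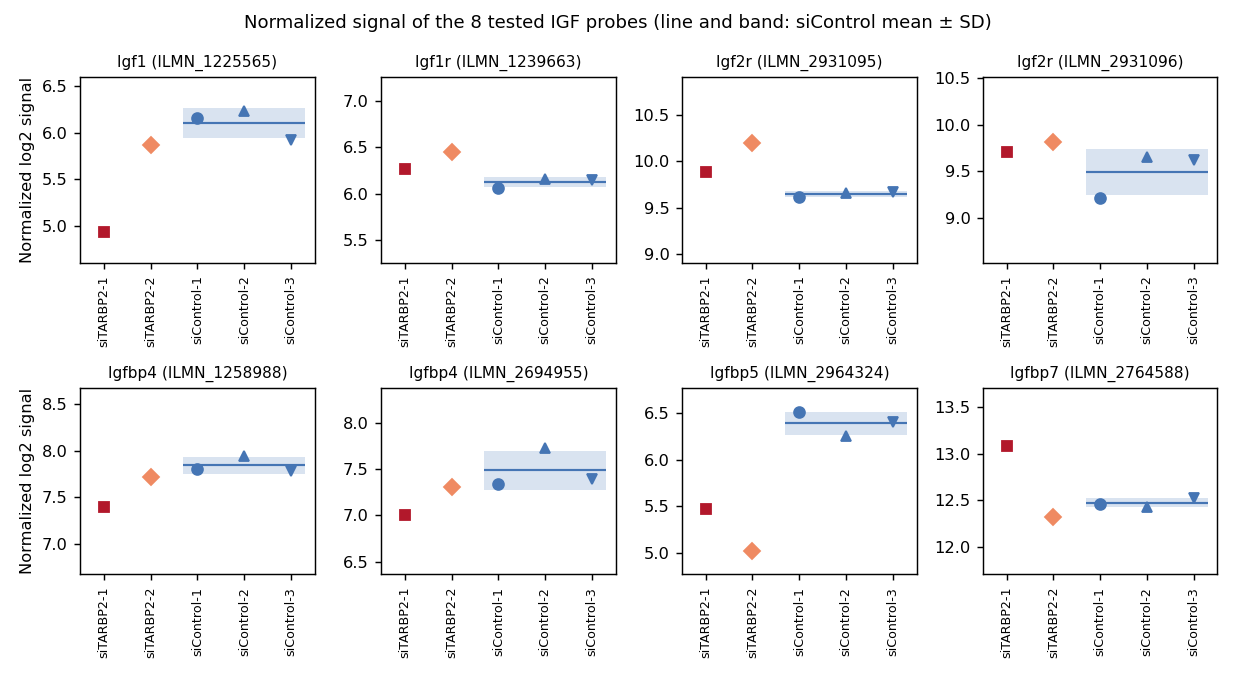
Normalized log2 signal of the 8 tested IGF probes on each array, siTARBP2 arrays left of the siControl arrays, with the siControl mean as a line and ± 1 SD as a band (n = 3); every panel spans 2 log2 units. Igfbp5 lies below the controls on both siTARBP2 arrays, Igf1 mainly on siTARBP2-1, and Igfbp7 departs upward on siTARBP2-1 alone.

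The siTARBP2 arrays were also set against each other, 1 array against 1. The spread here is that of the siControl arrays, which belong to neither side, so a difference between the siRNAs and one between these arrays cannot be told apart. With that spread 2 of 6 tested IGF genes passed, beside 7.08% of all tested genes. Igf1 was lower on the siTARBP2-1 array than on siTARBP2-2 (log2 difference -0.93, SE 0.18, 95% interval -1.36 to -0.51; limma, adjusted p = 0.0292). Igfbp7 was higher on the siTARBP2-1 array than on siTARBP2-2 (0.77, SE 0.14, interval 0.45 to 1.10; adjusted p = 0.0237). The others did not pass, with -0.18 for Igf1r (interval -0.50 to 0.15), -0.32 for Igf2r (interval -0.63 to -0.00129), -0.32 for Igfbp4 (interval -0.67 to 0.03) and 0.45 for Igfbp5. For Igf1 the call ended with no background correction (-0.37; limma, adjusted p = 0.0518), with no filter (-0.93, adjusted p = 0.0699) and without siControl-2 (-0.93, adjusted p = 0.0549). For Igfbp7 it ended with median scaling (0.60; limma, adjusted p = 0.0501) and without siControl-2 (0.77, adjusted p = 0.0621).

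**Figure D3:**
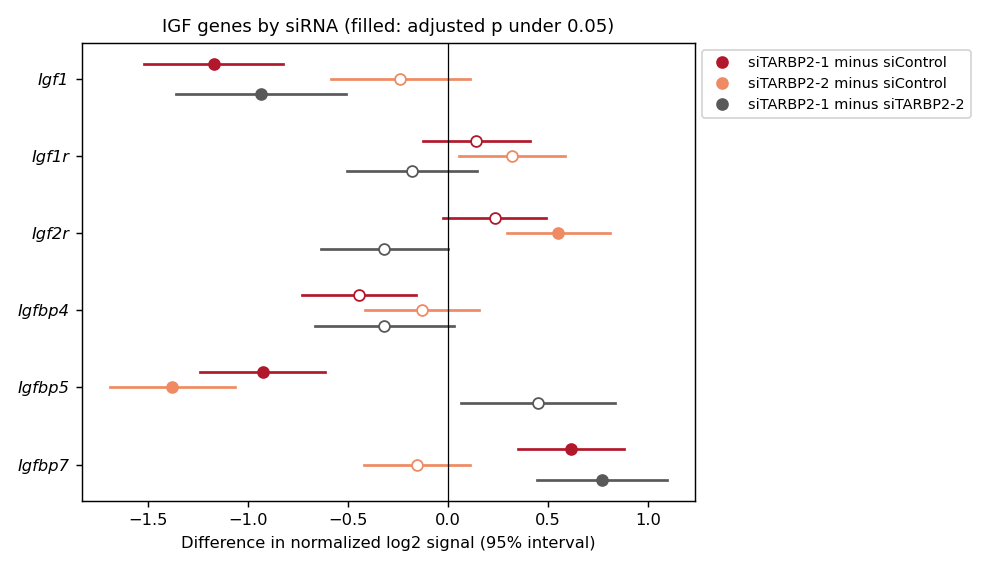
Difference in normalized log2 signal of the 6 tested IGF genes for siTARBP2-1 minus siControl, siTARBP2-2 minus siControl and siTARBP2-1 minus siTARBP2-2, with 95% intervals from limma; filled points have an adjusted p under 0.05. Igfbp5 is filled for both siRNAs, at -0.93 and -1.38, and open for the difference between them.

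With both siRNAs taken as 1 group of 2 arrays, where 0 of 6 IGF genes passed, 3 of 6 had an unadjusted limma p under 0.05, beside 12.9%. Igfbp5 had a mean of 5.24 ± 0.32 on the siTARBP2 arrays and 6.39 ± 0.13 on the siControl arrays (SD, n = 2 and 3), a difference of -1.15 (SE 0.16, 95% interval -1.52 to -0.78; limma, adjusted p = 0.111). It ranked 6 from the bottom of 8927 genes and passed with median scaling (-1.19; adjusted p = 0.0378). Igf1 had -0.70 (SE 0.26; limma, adjusted p = 0.342) and Igf2r 0.39 (SE 0.13; adjusted p = 0.295). The differences were smaller for Igfbp4 (-0.29), Igf1r (0.23) and Igfbp7 (0.23, interval -0.27 to 0.73). In 5 of 6 genes the siTARBP2 arrays did not overlap the siControl arrays in normalized signal, which held for 31.3% of all tested genes. The exception was Igfbp7. In raw signal Igf1, Igf1r and Igfbp4 overlapped as well.

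The authors' deposited table, which gives 1 log2 fold change per RefSeq transcript and lists Tarbp2 at -1.19, has Igfbp5 at -0.33 and Igf1 at -0.19. In the authors' deposited table Igf2r (0.29) and Igfbp7 (0.11) carry the authors' mark for higher transcripts, while Igf1r (0.08) does not. The authors' deposited table has Igfbp4 at -0.17, and the genes found here below background, Igf2, Igfbp2, Igfbp3 and Igfbp6, at -0.01 to 0.01. The authors' deposited table does not state its background step or give an error.

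The 5 calls made against siControl differed in how far they held. Igfbp5 passed with each siRNA, and Igf1 with siTARBP2-1, under all 11 other settings run, with adjusted p-values of at most 0.0418 (Igfbp5 with siTARBP2-2), 0.033 (Igfbp5 with siTARBP2-1) and 0.0291 (Igf1). Igfbp7 with siTARBP2-1 passed under 9 of 11 and Igf2r with siTARBP2-2 under 7 of 11. For the dim genes Igf1 and Igfbp5 the call held while the size did not, and for the bright genes Igf2r and Igfbp7 the size held while the call did not.

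**Figure D4:**
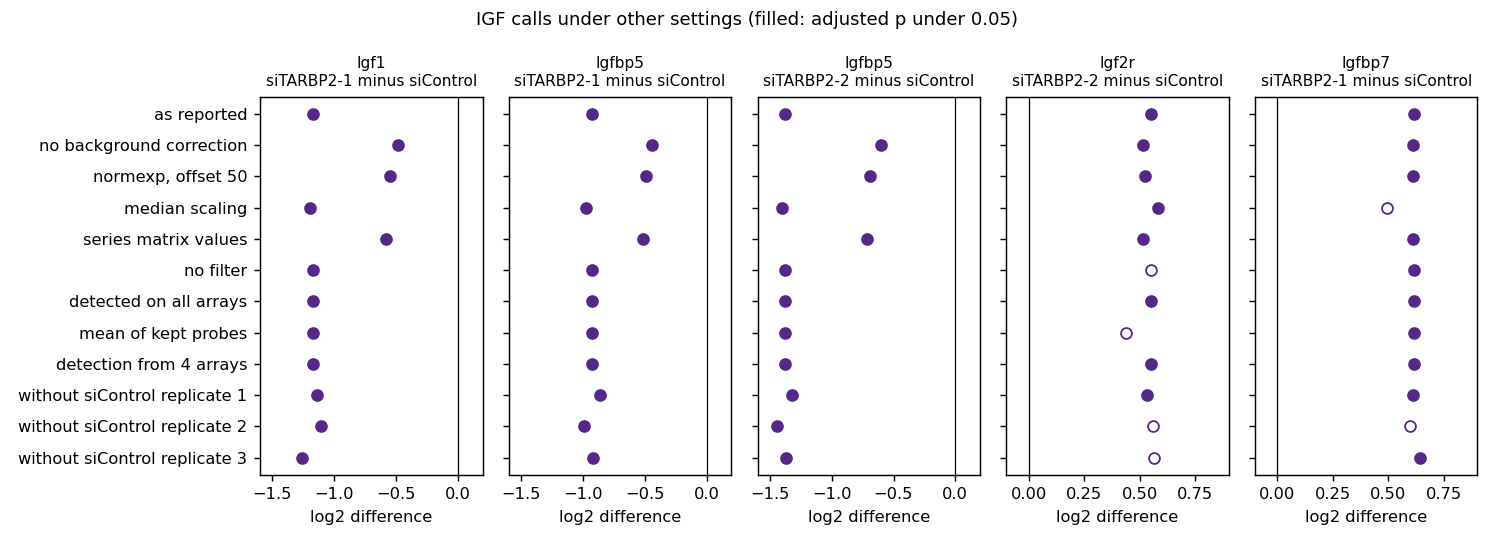
Log2 difference against siControl for the 5 calls of IGF genes, as reported and under each of 11 other settings of background correction, scaling, filter, probe choice and control arrays; filled points have an adjusted p under 0.05. The Igf1 and Igfbp5 points move toward 0 with no background correction, with normexp and an offset of 50 and with the series matrix values, and stay filled.

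Beyond the 10 genes, a list of 56 genes of IGF handling and signalling was read in the same fits. Of these 33 were tested, 13 were not above background, among them Insr, Irs1 and the kinase genes Akt1 and Akt2, and 10 had no probe named. With siTARBP2-1, 0 of 33 rose and 2 fell, beside 3.88% and 3.78% of all tested genes. Of the 33, 6 had an unadjusted limma p under 0.05, beside 24.7%. The list's median log2 difference was 0.00, beside -0.01 for all tested genes. Foxo1, a transcription factor that IGF signalling keeps out of the nucleus, had 7.63 with siTARBP2-1 and 8.14 with siTARBP2-2, against 8.38, 8.29 and 8.25 in siControl. It fell with siTARBP2-1 (-0.68, SE 0.11; limma, adjusted p = 0.0188), and the call ended without siControl-2 (adjusted p = 0.0688). Pik3r2, a regulatory subunit of PI3-kinase, had 6.38 with siTARBP2-1 and 6.95 with siTARBP2-2, against 7.07, 6.95 and 6.84. It fell with siTARBP2-1 (-0.57, SE 0.13; limma, adjusted p = 0.0451), and the call ended without siControl-2 (adjusted p = 0.128) and with no filter (adjusted p = 0.0772).

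With siTARBP2-2, 0 of the 33 listed genes rose and 0 fell, beside 1.75% and 2.52% of all tested genes, and 10 of 33 had an unadjusted limma p under 0.05, beside 22.9%. The median was 0.11, beside 0.02 for all tested genes. Over both siRNAs 0 passed and 4 of 33 had an unadjusted limma p under 0.05, beside 12.9%. Between the siRNAs 2 of 33 were higher with siTARBP2-1 and 1 was lower, beside 3.73% and 3.35%, and 11 of 33 had an unadjusted limma p under 0.05, beside 25.4%. Shc1, an adaptor that couples receptors to the Ras pathway, had 13.09 with siTARBP2-1 and 12.45 with siTARBP2-2, against 12.81, 12.93 and 12.88 in siControl. Its difference of 0.65 between the siRNAs passed (limma, adjusted p = 0.0423). Pik3r3, another regulatory subunit of PI3-kinase, was higher with siTARBP2-1 than with siTARBP2-2 (0.58; limma, adjusted p = 0.0497). Phlpp1, a phosphatase that acts on AKT, was lower (-0.59; adjusted p = 0.0465). These 3 calls each ended with no filter, without siControl-2 and without siControl-3, with adjusted p-values of 0.0504 to 0.114. Shc1 and Pik3r3 also lost the call with median scaling (limma, adjusted p = 0.101 and 0.197), and Phlpp1 lost it in each setting with another background step (-0.24 to -0.29). The 3 tested genes of mannose 6-phosphate sorting, the pathway that Igf2r serves, included 0 that passed with either siRNA, and so did the 4 tested regulators of IGF binding proteins.

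The genes nearest in pattern to each IGF gene that passed a single-siRNA test were found by Euclidean distance. It was taken over the 5 arrays in log2 signal minus the siControl mean. For Igfbp5 these were Rspo2, a secreted activator of Wnt signalling (distance 0.257), the retinoic acid receptor gene Rarb (0.336) and Arxes2 (0.364). Rspo2 had -0.71 with siTARBP2-1 and -1.45 with siTARBP2-2, where Igfbp5 had -0.93 and -1.38. For Igf1 they were Aebp1, a secreted matrix protein of connective tissue (0.185), Zfp704 (0.204) and Cfap410 (0.228), and for Igfbp7 Bdh1 (0.0755), Zfp52 (0.0977) and the BMP inhibitor gene Nog (0.105). For Igf2r they were the transcription factor gene Klf5 (0.0353), P2ry6 (0.0707) and the DNA repair gene Brca2 (0.087). With 5 arrays among 8927 genes such neighbours are a description of these arrays.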

How the data were processed

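RNA was hybridised to 1-colour Illumina BeadChips with a biotin label, per the labels. The authors' deposited non-normalized table holds linear intensity values and detection p-values of 25697 probes on 5 arrays; how probes were summarised is not stated. The submitters' processing notes name lumi, and in the authors' series matrix the intensity values of all arrays share nearly the same quantiles. Per the file headers, a last deposited table lists a log fold change per transcript, taken here as log2, and a score of 0 or 1. The mark 1 stands for up-regulated. The authors do not state which group is on top in the fold change, but the siRNA target Tarbp2 has -1.19. A negative value is therefore read here as lower with siTARBP2.

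The detection p-values beside siTARBP2-2 did not follow that array's signals (Spearman correlation 0.000598, against -0.961 to -0.967 for the others) and were replaced, a choice made after seeing the data, by the mean p-value that the remaining 4 arrays have at that rank of signal. Signals were corrected with the background estimated through the detection p-values and quantile normalized, as in neqc (offset 16), in limma 3.58.1 and R 4.3.3. Kept were 13123 probes whose detection p-value was under 0.05 on 2 or more arrays, and the brightest kept probe stood for a gene. GEO's platform annotation gave 1 gene symbol to 23978 probes, several to 0 and none to 1719. Limma's lmFit and eBayes (two-sided) were run over all kept probes with Benjamini-Hochberg adjustment, once with siTARBP2 as 1 group and once with a coefficient per siRNA. The fits were tested on simulated data. Array medians of raw signal were 79 to 81.9; the number of arrays limits the precision. The members, lists and settings were chosen with earlier results of these data known. Genes were named by a rule: all members, Tarbp2, Dicer1 and the listed genes that passed (at most 4 per comparison). It also took the 3 nearest patterns of each member that passed. Outside this rule are the cell type markers, Igfbp1, Insr, Irs1, Akt1 and Akt2. Htra1, Stc2, Irs2, Gnptg, Inppl1, M6pr, Pdpk1, Gab1, Grb14 and Gsk3a, which did not pass, also fall outside it. No gene coordinates other than those of the printed promoters are given, since the files name no build; the promoter sequences are those of RefSeq, GRCm38.p6, where all 10 members had an entry.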

Additional observations from a re-analysis of the deposited data

Results flagged for a closer look

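Between the siTARBP2 arrays, 2 of 6 tested IGF genes and 3 of 33 tested genes of the wider list passed the test. Of all tested genes 7.08% passed it. The test compares 1 array with 1 array and takes its spread from the siControl arrays. The log2 difference, siTARBP2-1 minus siTARBP2-2, was -0.93 for Igf1 and 0.77 for Igfbp7 (limma, adjusted p = 0.0292 and 0.0237). It was 0.65 for Shc1, 0.58 for Pik3r3 and -0.59 for Phlpp1 (limma, adjusted p = 0.0423, 0.0497 and 0.0465). Each siRNA has 1 array, so a difference between siRNAs and one between arrays cannot be told apart. Without siControl-2 none of the 5 passed (limma, adjusted p = 0.0549 for Igf1, 0.0621 for Igfbp7, 0.0943 for Shc1, 0.114 for Pik3r3 and 0.111 for Phlpp1).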

How the results depend on the processing

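The count of IGF genes called over both siRNAs, 0 as reported, became 1 with median scaling (Igfbp5) and ran from 0 to 3 when 1 array was left out, the higher values being those of a single siRNA (2 without siTARBP2-1 and 3 without siTARBP2-2). With siTARBP2-1 it was 3, became 4 with no background correction, with normexp and an offset of 50 and in the series matrix values (Igfbp4 added), stayed 3 with median scaling (Igfbp4 in place of Igfbp7), and ran from 2 to 3 without 1 control. With siTARBP2-2 it was 2 and became 1 with no filter or the mean of kept probes, and ran from 1 to 2 without 1 control. Between the siRNAs it was 2, became 1 with no background correction, with median scaling and with no filter, and ran from 0 to 2 without 1 control.

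The count of all genes called over both siRNAs, 1 as reported, became 11 with median scaling, 2 for probes detected on all arrays and 0 with no filter or the mean of kept probes, and ran from 0 to 683 when 1 array was left out. With siTARBP2-1 (683) it was 1228 with no background correction, 1224 with normexp and an offset of 50, 1221 in the series matrix values and 435 with no filter, and 257 to 800 without 1 control. With siTARBP2-2 (381) these counts were 959, 953, 955 and 83, and 58 to 503 without 1 control. Between the siRNAs (632) they were 1261, 1272, 1248 and 381, and 271 to 934 without 1 control; the lowest counts were without siControl-2. With median scaling 30.3% of the siTARBP2-1 calls were higher (50.7% as reported) and 29.7% of those between the siRNAs (52.7% as reported), beside shifts of the median of all genes of -0.12 and -0.15. The cause of these changes was not tested.

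The replicate numbers pair no samples by their labels, and deviations of same-numbered arrays had correlations of -0.0486 and -0.0267. A fit over both siRNAs with a replicate block called 0 IGF genes and 0 genes in all; for a single siRNA no such fit has residual degrees of freedom. Over both siRNAs, leaving out 1 array gave -0.16 to 0.62 for Igfbp7, -0.42 to 0.22 for Shc1, -0.52 to 0.0648 for Pik3r3 and -0.24 to 0.35 for Phlpp1, with the sign set by which siRNA was left out. Pik3r3 with siTARBP2-1 turned to -0.0728 with median scaling. Pik3r2 with siTARBP2-2, near 0 as reported, was 0.0188 with median scaling, 0.0703 with the mean of kept probes and -0.0553 to 0.0555 without 1 control. A filter on the 4 arrays with usable detection p-values, added after seeing the data, left all counts of IGF genes as reported. That filter changed only which probes were kept. The background of siTARBP2-2 was still estimated with the replaced p-values, so their effect on its signals was not tested by it. Signals close to background limit what can be read for Igf1, Igf1r and Igfbp5.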

Other observations

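Among the listed genes that did not pass, 3 were chosen after their values were seen, and in each both siTARBP2 arrays are above the siControl arrays. The same held for Gnptg, Inppl1, M6pr and Pdpk1, while both siTARBP2 arrays were below the siControl arrays for Foxo1, Gab1, Grb14 and Gsk3a. In all 33.3% of the 33 tested genes did not overlap (7 above and 4 below), beside 31.3% of all tested genes. Htra1, a secreted protease known to cleave Igfbp5, had a log2 signal of 10.93 with siTARBP2-1 and 10.97 with siTARBP2-2, against 10.70, 10.62 and 10.51 in siControl, a difference over both siRNAs of 0.34 (SE 0.11; limma, adjusted p = 0.3). Stc2, a secreted glycoprotein known to inhibit an IGF binding protein protease, had 6.99 and 6.84 on the siTARBP2 arrays, against 6.55, 6.62 and 6.76 on the siControl arrays (0.27, SE 0.12; limma, adjusted p = 0.407). Irs2, a docking protein of the insulin and IGF receptors, had 6.25 with siTARBP2-1 and 6.82 with siTARBP2-2, against 5.98, 5.53 and 6.16 in siControl (0.64, SE 0.23; limma, adjusted p = 0.337). The siControl arrays of Irs2 were themselves spread over a wide range.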
